A study of Mus musculus with 24 samples.

Results

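The genes described here are 6 lipase and lipid droplet genes of mouse pancreatic alpha and beta cells: Lpl, Lipe, Pnpla2, Mgll, Plin2 and Plin3. They were taken by symbol from a table of 14027 genes, and all 6 were present. RNA sequencing was done on pancreatic alpha cells and pancreatic beta cells of a mouse strain labelled triple reporter mouse, with islets isolated at zeitgeber time (ZT, hours after lights on) 0, 4, 8, 12, 16 and 20. Each cell type had 2 libraries at each of the 6 times, so 12 alpha and 12 beta libraries were compared. All 24 libraries carry the same strain label. The reporters, the drivers that mark each cell type, the age and feeding of the mice and whether a library pools animals are not stated in the labels. The series is entitled as a comparison of alpha and beta cell clocks, and the 2 questions taken here are how the genes differ between the cell types and how they vary over the day.

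These genes serve the release of fatty acids from fat outside the cell and the storage and breakdown of fat inside it. Lpl encodes lipoprotein lipase, a secreted enzyme that releases fatty acids from triacylglycerol in circulating lipoproteins. Inside the cell, fat is held in lipid droplets coated by perilipins, among them Plin2 and Plin3, and is broken down by adipose triglyceride lipase (Pnpla2), hormone-sensitive lipase (Lipe) and monoacylglycerol lipase (Mgll), which act in that order on tri-, di- and monoacylglycerol. In adipose tissue and muscle, lipoprotein lipase activity is known to follow feeding and fasting.

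On the mouse assembly GRCm38, in the GENCODE annotation, all 6 are protein-coding genes. Lpl lies at chr8:68880491-68907448 on the plus strand, Lipe at chr7:25379527-25398710 on the minus strand and Pnpla2 at chr7:141455198-141460743 on the plus strand. Mgll lies at chr6:88724412-88828360 on the plus strand, Plin2 at chr4:86648386-86670060 on the minus strand and Plin3 at chr17:56277476-56292873 on the minus strand. Lipe overlaps 1 annotated antisense gene, and Mgll overlaps 5 annotated genes, 3 on its own strand. None of these overlapping genes is in the table, and no source used here gives the strand setting of the counting, so reads of Lipe and Mgll cannot be separated from reads of those neighbours.

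Because the study is about clocks, the promoters were searched for the clock element called the E-box (CACGTG). RefSeq promoters of assembly GRCm38.p6, from 250 bases before to 50 bases after the start, were at hand for 5 of the 6 genes (7 promoters). Lpl was the gene without one, so no Lpl promoter was searched for any of the elements below. The E-box occurred in 3 of the 7, against 7.15% of all 32851 promoters of 300 bases. The stretches that hold it are shown with the E-box in capitals, for Plin2 because its rhythm passed the test in alpha cells, and for Mgll and Lipe for comparison. The Plin2 stretch is chr4:86670050-86670309 on the minus strand, with the E-box from base -4 to base 2 around the start. The Mgll stretch is chr6:88724356-88724385 on the plus strand, with the E-box from base -44 to -39. The Lipe stretch is chr7:25396125-25396154 on the minus strand, with the E-box from base -155 to -150. It lies inside the Lipe gene as annotated above, so the start it precedes is an internal one.
Plin2: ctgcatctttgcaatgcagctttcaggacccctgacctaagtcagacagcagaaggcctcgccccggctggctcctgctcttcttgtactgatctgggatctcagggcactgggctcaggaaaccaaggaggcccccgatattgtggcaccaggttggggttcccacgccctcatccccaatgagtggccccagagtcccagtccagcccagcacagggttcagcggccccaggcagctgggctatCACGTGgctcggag
Mgll: gggggccgggcaCACGTGgggccccggcgc
Lipe: aacagggacgacCACGTGagggggcggagg
The other elements searched, on both strands, were the ROR element (AANT followed by AGGTCA), the D-box (TTATGTAA) and the PPAR element (AGGTCA repeated after any 1 base), which occur in 0.219%, 0.938% and 0.0396% of all promoters. None of the 7 promoters held these letters. A match of letters is a description of the sequence only.

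The libraries held 4944982 to 12364190 reads in alpha cells and 8475413 to 11818032 in beta cells. Levels are given as RPKM (read number divided by gene length in kilobases and by library size), computed from whole reads recovered from the deposited log2 values. The cell type labels were checked against their hormones. Alpha libraries had Gcg at 125000 ± 24000 RPKM and beta libraries at 287 ± 519. Ins2 was at 1170 ± 954 in alpha cells and 174000 ± 38500 in beta cells (SD, n = 12 each). Each of the 6 alpha markers and each of the 8 beta markers was higher in its own cell type. Replicate 1 of ZT4 and replicate 1 of ZT16 in alpha cells and replicate 1 of ZT4 in beta cells held the most hormone RNA of the other cell type, and results that change without these 3 libraries are given with both values. The alpha libraries also held more delta cell and PP cell markers, with all 5 and all 3 markers higher. The delta markers summed to 2510 to 5180 RPKM in alpha and 645 to 1420 in beta libraries, and the PP markers to 27800 to 59500 and 359 to 1730. The part of those cells in the differences below was not tested.

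Lpl and Plin3 were the most abundant of the 6 genes in alpha cells, and both were much lower in beta cells. Per kilobase, the order of mean levels in alpha cells was Lpl at 56.4 ± 27.2 RPKM, Plin3 at 11.9 ± 1.83, Pnpla2 at 7.43 ± 0.52, Plin2 at 4.69 ± 1.41, Lipe at 2.19 ± 0.255 and Mgll at 0.262 ± 0.101 (SD over 12 libraries, which includes the time of day). In beta cells the order was Lpl at 8.94 ± 3.68 RPKM, Pnpla2 at 7.03 ± 0.789, Plin2 at 4.41 ± 0.848, Lipe at 1.23 ± 0.251, Plin3 at 1.19 ± 0.296 and Mgll at 0.0795 ± 0.0482. Among neighbours in these orders, the ranges of the libraries overlapped for Pnpla2 and Plin2 in both cell types and, in beta cells, for Lpl and Pnpla2 and for Lipe and Plin3. Mgll rested on 1 to 26 reads per alpha library and 1 to 9 reads per beta library, so its levels are imprecise.

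**Figure D1:**
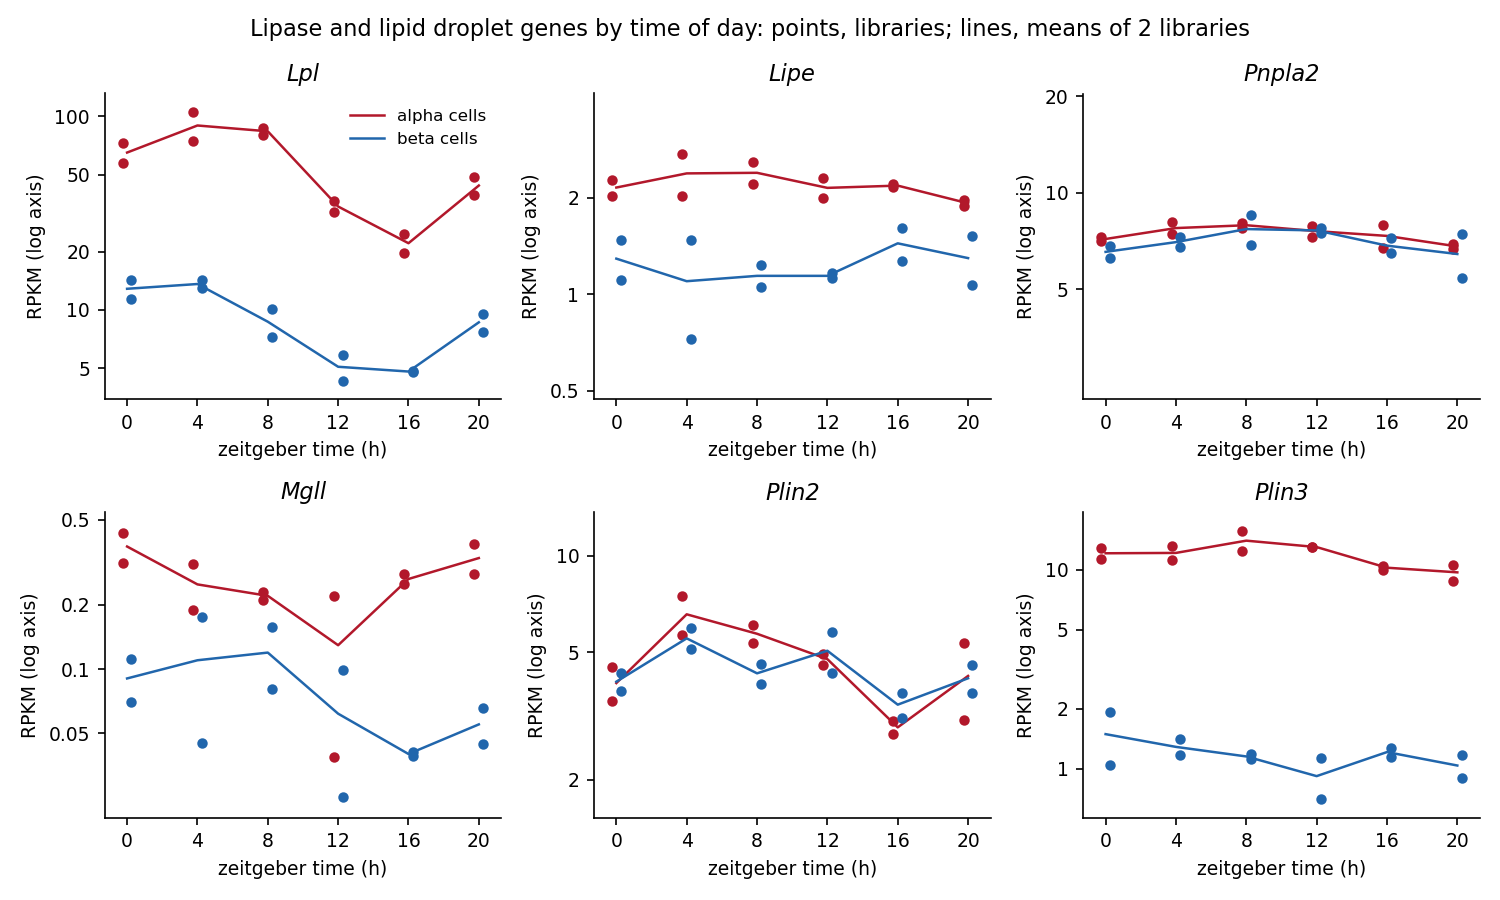
RPKM of the 6 genes (log axis) against zeitgeber time in hours, with a point for each library of alpha cells (red) and beta cells (blue) and lines through the means of 2 libraries. Lpl and Plin3 of alpha cells lie above those of beta cells at all 6 times, while Pnpla2 and Plin2 of the cell types overlap, and Lpl falls from ZT8 to ZT16 in both.

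Between the cell types, 3 of the 6 genes passed the test (limma, a fold of 2 or more with an adjusted p below 0.05), all 3 higher in alpha cells: Lpl, Plin3 and Mgll. Of all 14027 genes, 20.7% passed in either direction and 11.2% were higher in alpha cells. Lipe was higher in alpha cells by less than the fold threshold, and Pnpla2 and Plin2 did not pass. In such bulk samples, fewer cells that make a transcript and less of it per cell cannot be told apart.

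Lpl, the secreted lipase, ranged in alpha libraries from 19.6 through a median of 53.0 to 105 RPKM, and in beta libraries from 4.31 through 8.62 to 14.3. The lowest alpha library was above the highest beta library, although the lowest alpha values came from ZT16 and the highest beta values from ZT0 and ZT4. The difference was 2.60 ± 0.108 on the log2 scale (SE; 6.06-fold, limma adjusted p = 7.5e-16). It was seen at all 6 times, from 4.55-fold at ZT16 to 9.71-fold at ZT8.

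Plin3, a perilipin found on nascent droplets and in the cytosol, ranged from 8.81 through 11.9 to 15.6 RPKM in alpha and from 0.71 through 1.16 to 1.94 in beta libraries. The groups were far apart and did not overlap at any time. Plin3 had the largest difference of the 6, at 3.25 ± 0.104 log2 (SE; 9.49-fold, limma adjusted p = 6.4e-18), and it lay between 7.93-fold at ZT16 and 13.2-fold at ZT12.

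Mgll, which cleaves monoacylglycerol, ranged from 0.0388 through 0.264 to 0.436 RPKM in alpha and from 0.0251 through 0.0677 to 0.175 in beta libraries. The groups overlapped: the lowest alpha library, at ZT12, was below most beta libraries, but the alpha pair was above the beta pair at 5 of the 6 times. The difference was 1.33 ± 0.227 log2 (SE; 2.51-fold, limma adjusted p = 1.6e-05). On a log2(RPKM + 1) scale, which compresses low levels, the difference was 0.22 and missed the fold threshold.

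Lipe, the hormone-sensitive lipase, ranged from 1.88 through 2.18 to 2.74 RPKM in alpha and from 0.724 through 1.2 to 1.61 in beta libraries. The groups did not overlap, and the difference was 0.83 ± 0.109 log2 (SE; 1.78-fold, limma adjusted p = 4.2e-07). By adjusted p alone, 37.8% of all genes were higher in alpha cells. Libraries of Lpl, Plin3 and Lipe were thus wholly separated between the cell types, as were those of 11.9% of all genes, higher in alpha cells.

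Pnpla2, which starts triacylglycerol breakdown, ranged from 6.69 through 7.35 to 8.11 RPKM in alpha and from 5.43 through 7.04 to 8.52 in beta libraries. Plin2, the perilipin found on droplets of most cells, ranged from 2.78 through 4.75 to 7.47 and from 3.12 through 4.31 to 5.93. Both pairs of groups overlapped. The fold, alpha over beta, was 1.06 for Pnpla2 (interval of 2 SE either side 0.986 to 1.14, limma adjusted p = 0.15) and 1.04 for Plin2 (0.91 to 1.18, limma adjusted p = 0.64), so a difference of the size of that of Lipe lay outside both intervals.

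RNA of alpha cells in the beta libraries was read from Gcg, which stood at 0.0293% to 1.52% of its mean alpha level in the 12 beta libraries (median 0.0977%). Lpl in beta libraries stood at 7.64% to 25.3% of its mean alpha level and Plin3 at 5.99% to 16.3%, above the Gcg share in all beta libraries. Without the 3 libraries with the most hormone RNA of the other cell type, the log2 difference was 2.67 for Lpl, 3.30 for Plin3 and 1.34 for Mgll. Among markers of other cell types, those of macrophages (5 of 11 in the table) summed to 40.6 to 70.7 RPKM in alpha and 32.7 to 65.4 in beta libraries, and 0 of the 5 passed the test. Most of these sums was C1qa, with means of 44.6 RPKM in alpha and 39.6 in beta cells. Stromal markers (6 of 8) summed to 4.3 to 9.14 RPKM in alpha and 0.517 to 1.65 in beta libraries, and 4 were higher in alpha cells, as Lpl was. Most of the alpha sum was Col1a2, with means of 4.41 RPKM in alpha and 0.0856 in beta cells. Endothelial markers (5 of 9) summed to 3.98 to 7.61 and 2.21 to 4.15 RPKM, with 0 of the 5 called. Acinar markers (11 of 12), which include the pancreatic lipase Pnlip, summed to 37.4 to 461 RPKM and 45.9 to 411, with 0 called. Of the 8 adipocyte markers, 0 were in the table. The part of these cells in the differences was not tested.

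Over the day, Lpl was high from ZT0 to ZT4 and low at ZT12 and ZT16 in both cell types. In alpha cells its 2 libraries were at 72.6 and 57.4 RPKM at ZT0, 74.4 and 105 at ZT4, 80.2 and 87.2 at ZT8, 32.0 and 36.4 at ZT12, 19.6 and 24.6 at ZT16, and 48.5 and 39.3 at ZT20. In order of their means the times ran ZT4, ZT8, ZT0, ZT20, ZT12 and ZT16, and among neighbours in that order only ZT4 and ZT8 overlapped. The mean at ZT4 was 89.5 RPKM, 4.05 times the 22.1 of ZT16.

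In beta cells Lpl was at 14.3 and 11.4 RPKM at ZT0, 14.2 and 13.0 at ZT4, 7.27 and 10.1 at ZT8, 5.85 and 4.31 at ZT12, 4.76 and 4.84 at ZT16, and 9.52 and 7.72 at ZT20. The order of means was ZT4, ZT0, ZT8, ZT20, ZT12 and ZT16, with overlaps between ZT4 and ZT0, between ZT8 and ZT20 and between ZT12 and ZT16. The mean at ZT4 was 13.6 RPKM, 2.82 times the 4.8 of ZT16. At ZT8 the alpha libraries were still near their top while the beta libraries had come down, and this is the time of the widest gap between the cell types.

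A cosine with a period of 24 h, fitted to the log2 values, had an amplitude of 0.98 ± 0.1 log2 in alpha cells (a swing from trough to peak of 3.88-fold, with an interval of 2 SE either side of 2.98 to 5.05) and of 0.82 ± 0.1 in beta cells (3.11-fold, 2.39 to 4.04). The fitted peak of the alpha course was at ZT 4.0 ± 0.4 h and that of the beta course at ZT 2.1 ± 0.4 h (SE). The median amplitude over all genes was 0.18 log2 in alpha and 0.19 in beta cells. The rhythm of Lpl was known when these genes were brought together, so it is described here and not tested. The 6 times span 1 cycle, so a recurring rhythm and a single rise cannot be told apart.

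The Lpl peak was 1.90 ± 0.58 h later in alpha than in beta cells (SE), and the amplitude larger by 0.16 ± 0.13 log2. Whether the test of the difference of rhythm passed for Lpl depended on pairing. It did not pass with libraries taken as unpaired (limma adjusted p = 0.38, unadjusted p = 0.0077 by the same model). With libraries taken as unpaired, that test called none of the 6 genes in limma, nor in limma voom on the recovered reads, and Lpl was the 1 gene of the 6 with an unadjusted p under 0.05. Of all genes, 0.0713% passed (10 genes), and 1074 had an unadjusted p under 0.05. With alpha and beta libraries of the same time and number taken as pairs, Lpl passed (limma adjusted p = 0.04), and 359 of all genes passed. The labels do not say whether such libraries are pairs.

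Endothelial markers, of which Esam was the most abundant at 4.34 RPKM in alpha cells, summed in alpha libraries to 6.56 to 6.87 RPKM at ZT4 and 4.41 to 4.71 at ZT16, with 3.98 to 6.24 at ZT0 and 5.04 to 6.79 at ZT12. In beta libraries they summed to 3.23 to 3.84 at ZT4 and 2.21 to 2.53 at ZT16, with 2.44 to 2.89 at ZT0 and 3.32 to 3.66 at ZT12, and 1 of the 5 was rhythmic in beta cells. At ZT8 the sums were 6.01 to 7.61 RPKM in alpha and 3.82 to 4.15 in beta libraries. At ZT20 they were 4.01 to 5.4 and 2.82 to 3.7. The ZT4 sums were thus above the ZT16 sums, as for Lpl. In beta cells the ZT12 sums were above the ZT0 sums, opposite to Lpl. The highest beta sum was in a ZT8 library, a time when beta Lpl had come down from ZT4. Their part in the course of Lpl was not tested. Without the 3 libraries with the most hormone RNA of the other cell type, the Lpl amplitude was 0.99 log2 in alpha and 0.81 in beta cells.

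Of the other 5 genes, Plin2 was called rhythmic in alpha cells (limma F-test, adjusted p = 0.021). In beta cells 0 of the 5 were called in limma or in limma voom, and 1 of them, Pnpla2, had an unadjusted p under 0.05 (limma, 0.038). Of all genes, 9.66% were called rhythmic in alpha cells, 16% in beta cells and 4.15% in both. Alpha Plin2 was at 4.48 and 3.52 RPKM at ZT0, 5.64 and 7.47 at ZT4, 6.05 and 5.35 at ZT8, 4.93 and 4.57 at ZT12, 2.78 and 3.04 at ZT16, and 3.07 and 5.35 at ZT20. The ZT4 and ZT8 libraries were high and the ZT16 libraries lowest, and the ZT20 libraries lay wide apart. The amplitude was 0.47 ± 0.11 log2 (SE; a swing of 1.92-fold, 1.43 to 2.57) with the peak at ZT 5.8 ± 0.9 h.

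The Plin2 call in alpha cells was lost when 1 of 5 libraries was left out: replicate 1 or 2 of ZT16 (limma adjusted p = 0.069 and 0.064), replicate 1 of ZT20 (0.058), replicate 2 of ZT4 (0.061) or replicate 1 of ZT8 (0.066). It was also lost without the 3 libraries with the most hormone RNA of the other cell type (limma adjusted p = 0.073, amplitude 0.43).

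In beta cells Plin2 was at 4.31 and 3.77 RPKM at ZT0, 5.10 and 5.93 at ZT4, 3.98 and 4.60 at ZT8, 5.78 and 4.31 at ZT12, 3.12 and 3.73 at ZT16, and 3.73 and 4.55 at ZT20. Here too ZT4 had the highest mean and ZT16 the lowest, but most times overlapped their neighbours. The amplitude was 0.21 ± 0.11 log2 with a peak at ZT 6.0 ± 1.9 h (SE), and the rhythm did not pass (limma adjusted p = 0.30). The rhythms of Plin2 in the cell types were not shown to differ (limma adjusted p = 0.93), with an amplitude larger in alpha cells by 0.26 ± 0.15 log2.

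The intracellular lipases and Plin3 did not pass the test of rhythm in either cell type. The amplitude of Pnpla2 was 0.10 ± 0.05 log2 in alpha and 0.14 ± 0.05 in beta cells (SE; limma adjusted p = 0.34 and 0.12). That of Lipe was 0.12 ± 0.1 and 0.17 ± 0.1 (limma adjusted p = 0.64 and 0.40). The beta amplitude of Lipe was 0.26 without replicate 1 of ZT4, also in the fit without the 3 libraries rich in the other hormone, 0.09 without replicate 2 of ZT4 and 0.10 on log2(RPKM + 1). Time means of Lipe lay between 1.92 and 2.39 RPKM in alpha cells and between 1.1 and 1.44 in beta cells.

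For Plin3 the amplitude was 0.23 ± 0.1 log2 in alpha and 0.20 ± 0.1 in beta cells (SE; limma adjusted p = 0.21 and 0.26), and for Mgll it was 0.60 ± 0.2 and 0.45 ± 0.2 (limma adjusted p = 0.12 and 0.24). With few reads the Mgll amplitudes have a large error. Without replicate 2 of ZT12, where 1 read was found, the alpha amplitude was 0.34, and on log2(RPKM + 1) the amplitudes were 0.12 in alpha and 0.05 in beta cells. The beta amplitude of Plin3 was 0.10 without replicate 2 of ZT0 and 0.11 without replicate 2 of ZT12, and 0.12 on log2(RPKM + 1). The swing intervals reach up to 1.57-fold and 1.69-fold for Lipe, 1.33-fold and 1.40-fold for Pnpla2, 1.81-fold and 1.74-fold for Plin3 and 4.05-fold and 3.30-fold for Mgll, in alpha and beta cells, and swings up to these sizes lie within the error of these data. With other choices of scale or sample, 3 of these tests passed: Plin3 in alpha cells with limma voom (adjusted p = 0.046), Mgll in alpha cells on log2(RPKM + 1) (limma adjusted p = 0.043) and Pnpla2 in beta cells without replicate 1 of ZT20 (limma adjusted p = 0.036).

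**Figure D2:**
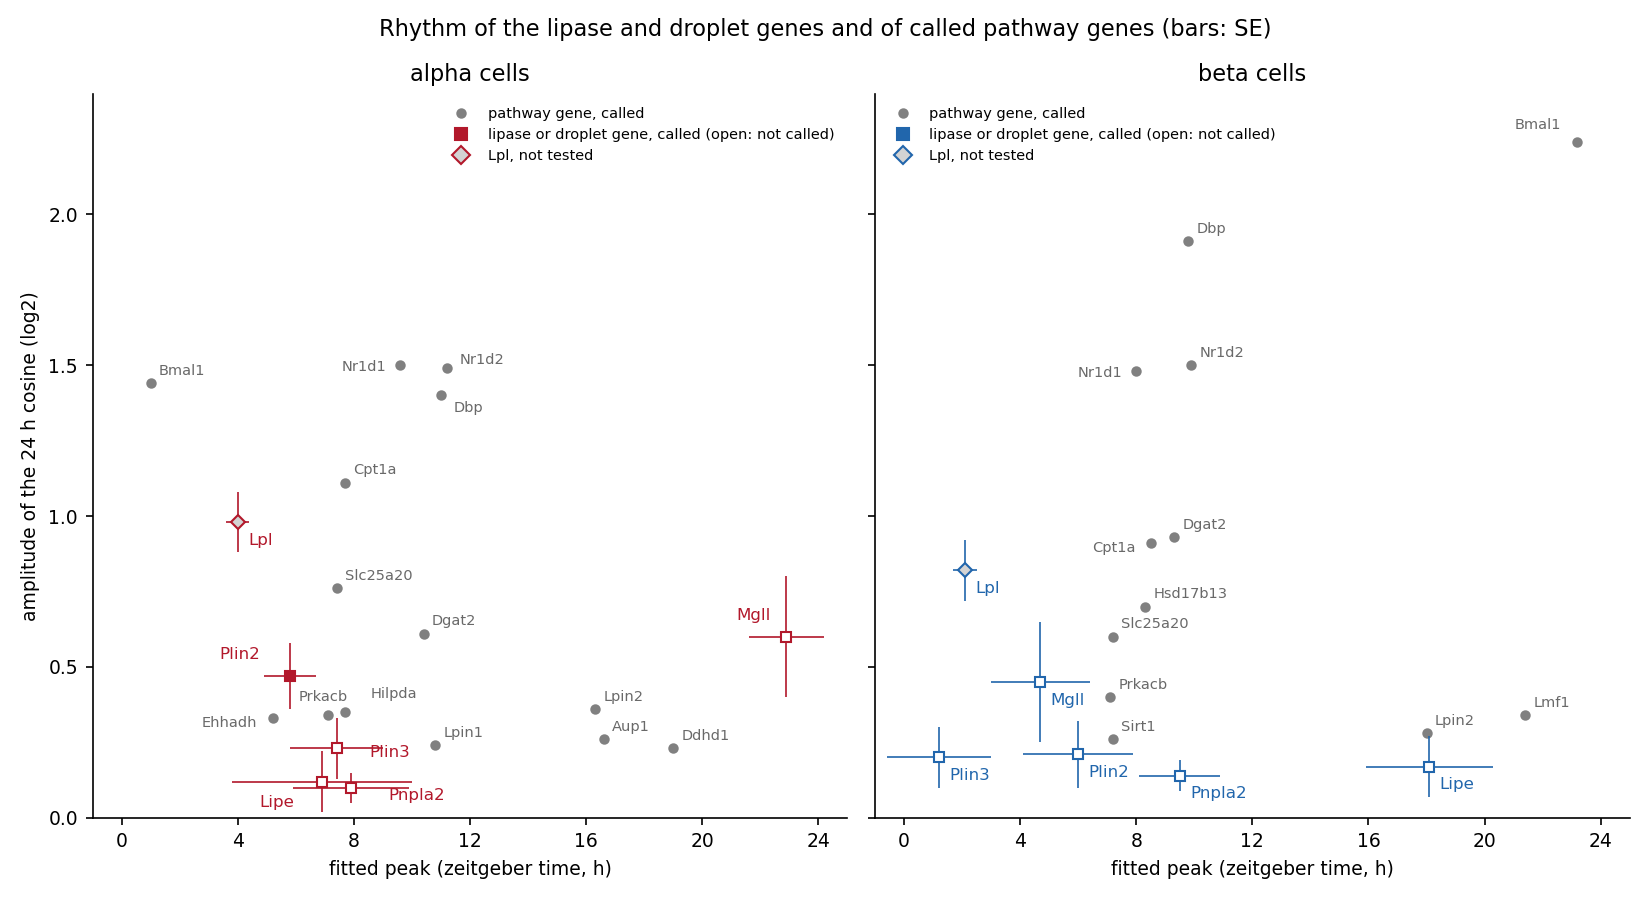
Amplitude of the fitted 24 h cosine (log2) against fitted peak (zeitgeber time, h) for the 6 genes (bars are SE, squares filled where called, and a diamond for Lpl, which was not tested) and for genes of the pathway lists called in that cell type (grey), in alpha cells (left) and beta cells (right). Lpl has the largest amplitude of the 6 genes in both panels, at 0.98 and 0.82 log2, and peaks before Cpt1a, Slc25a20 and the clock genes Nr1d1, Nr1d2 and Dbp.

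The genes with a time course most like that of Lpl, by Pearson correlation of log2 values over the 24 libraries with each cell type centred on its own mean, included Auh (r = 0.871), Thbd (0.857), Cmtm6 (0.852) and Orc6 (0.849), among 11831 genes with a mean log2 RPKM above 0. All points share their libraries and depth with Lpl, and the r values are descriptions. Auh encodes a mitochondrial RNA-binding hydratase of leucine breakdown, Thbd thrombomodulin and Orc6 a subunit of the origin recognition complex. Their own fitted swings in beta cells were 1.93-fold for Auh, 2.65-fold for Thbd, 1.47-fold for Cmtm6 and 1.46-fold for Orc6, all smaller than the 3.11-fold of Lpl. Their fitted peaks in beta cells fell between ZT 2.6 h and ZT 3.2 h. By time means in beta cells, Thbd ran from 0.902 log2 above its mean at ZT4 to 0.769 below it at ZT16. That range was wider than that of Lpl, from 0.72 above to 0.771 below at the same times.

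**Figure D3:**
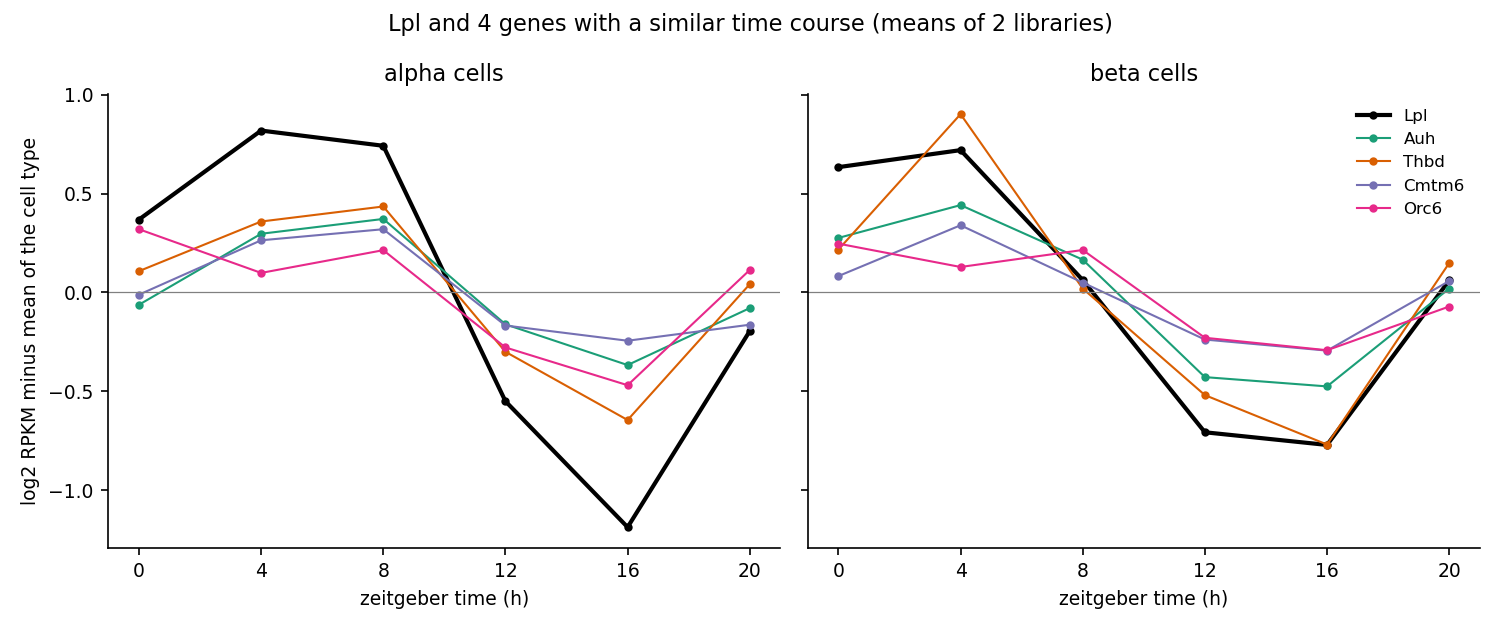
Log2 RPKM minus the mean of the cell type against zeitgeber time (h) for Lpl (black) and 4 of the 5 genes most correlated with it, as means of 2 libraries, in alpha cells (left) and beta cells (right). All the lines are lowest at ZT16 in both panels, and Lpl spans a wider range than the other lines in alpha cells.

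For Plin2 the most alike genes were Rragd (r = 0.889), a Rag GTPase of nutrient sensing, Tnpo1 (0.869), a nuclear import receptor, and Slu7 (0.868), a splicing factor. Their fitted swings were 1.99-fold, 1.28-fold and 1.35-fold in alpha cells and 1.26-fold, 1.13-fold and 1.26-fold in beta cells. These genes were picked for their likeness to Plin2 over the same libraries, so the values are descriptions. Lipe was most like Plec (0.815), Gys1 (0.769), which encodes muscle glycogen synthase, and Dhx38 (0.747), with higher r in beta cells (0.794 to 0.888) than in alpha cells (0.47 to 0.558). Pnpla2 was most like Net1 (0.717), Fut10 (0.715) and Tapbp (0.710). Mgll, itself at few reads, was most like Pcp4l1 (0.771), Fkbp1b (0.709) and the gene listed as TUBB5 (0.690). The r of TUBB5 was 0.909 in alpha cells but 0.181 in beta cells. Plin3 was most like Bend5 (0.736), Lrrc27 (0.689) and Ctxn2 (0.666), the last with a median of 0.5 reads in beta libraries.

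The genes around lipoprotein lipase, which fold, cleave, anchor or inhibit it or take up its products, were measured for 13 of 22 listed genes. At the threshold of a 2-fold difference, 4 were called higher in alpha cells, 3 were called higher in beta cells and 6 were not called, against 11.2% and 9.54% of all genes called, and the median log2 difference was 0.09 (0.01 over all genes). Lrp1, a receptor for lipoprotein remnants, was at 15.1 ± 2.61 RPKM in alpha and 1.31 ± 0.289 in beta cells (SD, n = 12; 11.5-fold, limma adjusted p = 1.1e-18). Cd36, a fatty acid transporter, was at 2.7 ± 0.605 and 0.22 ± 0.132 RPKM (10.8-fold, limma adjusted p = 8.3e-15). Both thus had the same direction as Lpl. Pcsk5, a convertase that can cleave lipases, was at 0.388 ± 0.0734 and 0.0108 ± 0.0155 RPKM (14.1-fold, with a median of 0 reads in beta libraries, so that the fold depends on the prior count). Vldlr, a receptor that binds triacylglycerol-rich lipoproteins, went the other way, at 0.947 ± 0.265 in alpha and 8.79 ± 1.42 RPKM in beta cells (9.31-fold higher in beta, limma adjusted p = 2.4e-18).

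Over the day, 1 of the 13 was called in each cell type. In beta cells Lmf1, the chaperone that lipoprotein lipase needs to fold, swung 1.60-fold with a peak at ZT 21.4 ± 0.8 h (limma adjusted p = 0.010). Lmf1 in alpha cells did not pass (swing 1.14-fold, limma adjusted p = 0.61). Gpihbp1, the capillary anchor of the enzyme, was not in the table.

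Partners of the intracellular lipases were measured for 21 of 24 listed genes, with 2 called higher in alpha cells, 4 called higher in beta cells and a median log2 difference of -0.31. Prkar2b, a regulatory subunit of protein kinase A, was 4.17-fold higher in beta cells (4.66 ± 0.627 against 19.6 ± 2.67 RPKM, SD). Abhd6, another monoacylglycerol lipase, was 2.82-fold higher in beta cells (2.6 ± 0.591 against 7.38 ± 0.871 RPKM), opposite to Mgll. Pnpla3 was 2.5-fold higher in beta cells (0.201 ± 0.098 against 0.554 ± 0.197 RPKM), and Ces1d, a carboxylesterase, 2.44-fold higher in alpha cells (0.522 ± 0.376 against 0.183 ± 0.155 RPKM). Both rest on few reads and missed the fold threshold on log2(RPKM + 1).

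Of the 21, 3 were rhythmic in each cell type and 1 in both, namely Prkacb, a catalytic subunit of protein kinase A, with a swing of 1.61-fold in alpha cells (limma adjusted p = 0.030) and 1.75-fold in beta cells (0.0085) and peaks at ZT 7.1 h in both. In alpha cells Ddhd1 (1.37-fold, limma adjusted p = 0.031) and Hilpda, an inhibitor of adipose triglyceride lipase (1.62-fold, 0.048), were also called, and in beta cells Sirt1 (1.44-fold, 0.033). Calls at these levels were not firm. Prkacb in alpha cells lost its call without any 1 of 5 libraries (highest adjusted p 0.11; limma), both of ZT8, both of ZT16 and replicate 2 of ZT4. Ddhd1 lost it without either library of ZT8 or ZT16 or replicate 1 of ZT20 (0.10) and without the 3 libraries rich in the other hormone (0.072), Hilpda without any 1 of 17 libraries (0.22), with limma voom (0.067) and without the robust option (0.05), and Sirt1 without either beta library of ZT8 or ZT16 or replicate 2 of ZT4 (0.10).

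Genes of the droplet coat and of droplet growth were measured for 13 of 21 listed genes, with 0 called higher in alpha cells, 1 called higher in beta cells and a median log2 difference of -0.45. That gene was Hsd17b13, a droplet-bound dehydrogenase, at 0.0888 ± 0.0695 RPKM in alpha and 0.728 ± 0.306 in beta cells (SD; 4.52-fold, limma adjusted p = 5.6e-10). Hsd17b13 rests on few reads, with a median of 2 in alpha and 13.5 in beta libraries. It was also rhythmic in beta cells, with a swing of 2.64-fold and a peak at ZT 8.3 ± 0.9 h (limma adjusted p = 0.022). That call was lost without replicate 2 of ZT20 or replicate 1 of ZT8 (highest adjusted p 0.076). Its beta amplitude lay between 0.31 and 0.82 log2 across the alternatives. Aup1, which sits on droplets and the endoplasmic reticulum, swung 1.44-fold in alpha cells with a peak at ZT 16.6 h (limma adjusted p = 0.022), lost without either library of ZT16, replicate 2 of ZT4 or replicate 1 of ZT8 (highest 0.084) and without the 3 libraries rich in the other hormone (0.071). Plin1, the perilipin of fat cells, was not in the table.

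Enzymes that build triacylglycerol were measured for 18 of 21 listed genes, with 3 called higher in alpha cells, 1 called higher in beta cells, 14 not called and a median log2 difference of -0.29. Agpat4, an acyltransferase, was 7.0-fold higher in alpha cells (10.6 ± 1.71 against 1.48 ± 0.39 RPKM, SD), glycerol kinase (Gk, in the table under an older symbol) 4.74-fold (1.39 ± 0.198 against 0.277 ± 0.0519 RPKM) and the phosphatidate phosphatase Lpin2 3.16-fold (6.66 ± 1.35 against 2.09 ± 0.381 RPKM). Agpat3 was 2.05-fold higher in beta cells (8.25 ± 0.831 against 16.9 ± 1.34 RPKM).

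Of the 18, alpha cells had 3 called rhythmic and beta cells 2, which were among those 3. Dgat2, which adds the last fatty acid, swung 3.63-fold in beta cells with a peak at ZT 9.3 ± 0.6 h (limma adjusted p = 0.0018) and 2.33-fold in alpha cells with a peak at ZT 10.4 ± 1.0 h (0.040). The alpha call was lost without any 1 of 10 alpha libraries, all but the first replicates of ZT0 and ZT4 (highest adjusted p 0.12), and without the 3 libraries rich in the other hormone (0.056). It was also lost on log2(RPKM + 1) (limma adjusted p = 0.07) and with limma voom (0.072). Lpin2 peaked at ZT 16.3 h in alpha (1.64-fold, limma adjusted p = 0.012) and ZT 18 h in beta cells (1.47-fold, 0.030), the latter lost without either beta library of ZT8 or ZT16 or replicate 2 of ZT4 (highest 0.098). Lpin1 was called in alpha cells (1.40-fold, limma adjusted p = 0.037) and lost without any 1 of 8 libraries, all alpha ones but replicate 1 of ZT16, replicate 2 of ZT20 and both of ZT4 (highest 0.095).

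Nuclear receptors and clock factors known to act on lipid genes were measured for 16 of 18 listed genes, with 1 called higher in alpha cells, 4 called higher in beta cells, 11 not called and a median log2 difference of -0.44. Pparg, the receptor that drives lipase and perilipin genes in fat cells, was at 0.0483 ± 0.043 RPKM in alpha and 6.11 ± 1.32 in beta cells (SD; 43.1-fold higher in beta, limma adjusted p = 5e-19), a direction opposite to that of Lpl and Plin3. Its alpha level rests on a median of 1 read, so the fold depends on the prior count. Nr1h3, the liver X receptor alpha, was 9.47-fold higher in beta cells (0.301 ± 0.145 against 3.11 ± 0.454 RPKM) and Srebf1 2.66-fold (12.1 ± 1.73 against 32.2 ± 4.72 RPKM). Rxra, the shared partner of these receptors, was 3.15-fold higher in alpha cells (27.5 ± 4.02 against 8.75 ± 1.48 RPKM).

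Of the 16, alpha cells had 5 called rhythmic and beta cells 8, with 5 called in both, and the lowest p belonged to clock genes. For Bmal1, listed under its older symbol, the alpha peak was at ZT 1.0 ± 0.5 h and the beta peak at ZT 23.2 ± 0.3 h (SE). Those of Nr1d1, in the same order, were at ZT 9.6 ± 0.2 h and ZT 8.0 ± 0.2 h, and those of Dbp at ZT 11.0 ± 0.4 h and ZT 9.8 ± 0.3 h. With libraries taken as unpaired, the difference of rhythm between the cell types did not pass for these 3 genes (limma adjusted p = 0.16, 0.12 and 0.29), nor for Lpl. The Lpl peak lay after that of Bmal1 and before that of Nr1d1 in both cell types.

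Targets of the PPAR receptors in fatty acid use were measured for 12 of 14 listed genes, with 3 called higher in alpha cells, 0 called higher in beta cells, 9 not called and a median log2 difference of -0.06. Pdk4, a kinase that turns glucose oxidation down, was at 49.2 ± 12.5 RPKM in alpha and 0.149 ± 0.306 in beta cells (SD; 371-fold, limma adjusted p = 1.6e-15, with a median of 2.5 reads in beta libraries). Creb3l3, a liver transcription factor of lipid genes, was 10.6-fold higher (1.35 ± 0.428 against 0.0712 ± 0.0486 RPKM) in alpha cells. On log2(RPKM + 1) Pcsk5, Hsd17b13, Gk and Agpat3 of the lists above missed the fold threshold.

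Over the day, alpha cells had 3 of the 12 called and beta cells 4, with 2 called in both. Cpt1a, which controls entry of fatty acids into mitochondria, had a swing of 4.67-fold and a peak at ZT 7.7 ± 0.5 h in the alpha course and of 3.55-fold and ZT 8.5 ± 0.6 h in the beta course (limma adjusted p = 8.9e-05 and 0.00047). Slc25a20, the carrier of acylcarnitines, swung 2.88-fold with a peak at ZT 7.4 ± 0.5 h and 2.29-fold with a peak at ZT 7.2 ± 0.6 h (0.00032 and 0.0018; limma). Both peaked after Lpl in both cell types, and Plin2 in alpha cells, at ZT 5.8 h, lay between. Ehhadh in alpha cells (1.57-fold, limma adjusted p = 0.017) lost its call without replicate 2 of ZT16, replicate 2 of ZT4 or replicate 1 of ZT8 (highest 0.066). In each of the 6 lists, 0 genes passed the limma test of a difference of rhythm with libraries taken as unpaired. In that test 0 to 4 had an unadjusted p under 0.05.

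**Figure D4:**
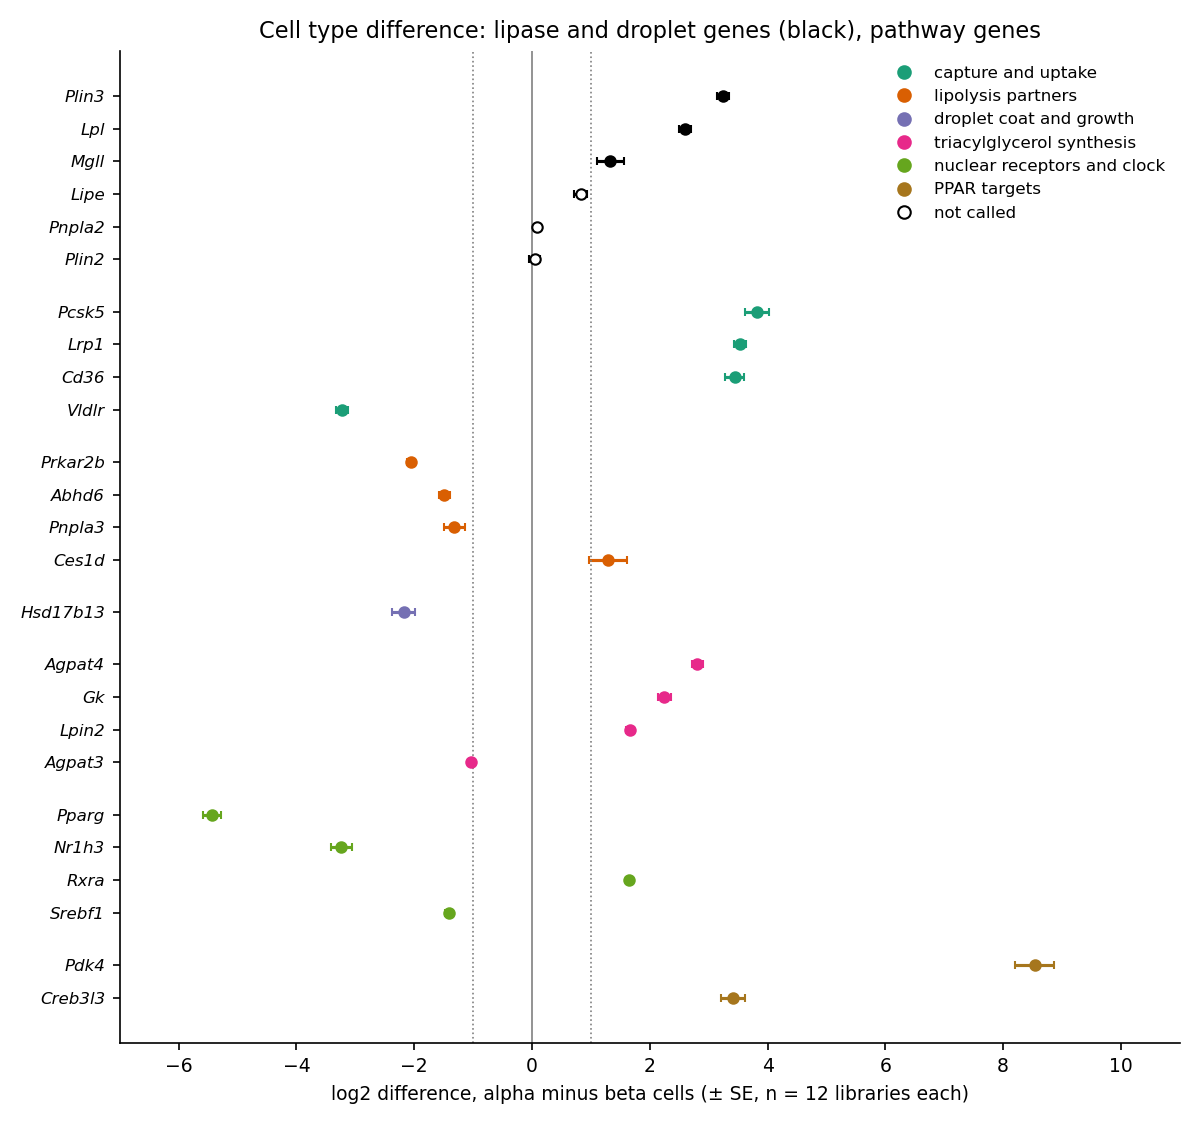
Log2 difference (alpha minus beta cells, SE over 12 libraries of each) of the 6 genes (black) and of the pathway genes named for their cell type difference (colours by list). Filled points passed the test, dotted lines mark the threshold of 2-fold, and the 6 genes run from Plin3 at 3.25 to Plin2 at 0.05.

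Over all genes, 53.9% of the cell type calls were higher in alpha cells, and on log2(RPKM + 1) the share was 43.1%. Lpl and Plin3 were called higher in alpha cells on both scales.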

How the data were processed

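Per the labels' protocols, total RNA was purified on columns, ribosomal RNA was removed and a stranded library kit was used. STAR, edgeR and mm10 are named, without versions, in the submitters' processing notes. The authors deposited 1 table of log2 values, per the values log2 RPKM with a prior count of about 2.0 reads. From them whole reads were recovered for 100% of the 14027 genes (largest deviation 8e-08), and 0.774% of values were 0 reads. Reads served for RPKM and depth. Of the gene identifiers, 13802 matched GENCODE M21.

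The deposited log2 values were tested with limma 3.58.1 in R 4.3.3 (trend, robust), with Benjamini-Hochberg adjustment over all 14027 genes. Cell types were compared with time as a factor. Rhythms were fitted as a 24 h cosine for each cell type in 1 model of 24 libraries, and both F-tests came from it. Scripts were tested on simulated data. The members and lists were chosen with earlier results of these data known. Named pathway genes are up to 4 called per list, by fold between cell types and by p for rhythm. Likeness names 5 genes for Lpl and 3 for each other gene, with predicted genes passed over. Some genes taken by these rules are counted but not reported here by name. No source says whether both libraries of a group stem from different animals, so p-values measure the spread between libraries, which may be technical.

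Alternatives were log2(RPKM + 1), keeping genes whose mean log2 RPKM exceeds 0, median centring, a replicate block, other shapes of rhythm and leaving out each library. Count tests planned in edgeR were not run because the deposited values are log2. Limma voom on the recovered reads replaced them, chosen after seeing the data.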

Additional observations from a re-analysis of the deposited data

How the results depend on the processing

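Of 77 results for single genes, 49 stayed on their side of the threshold under every alternative run, 28 changed side under some alternative and 0 reversed. Lpl and Plin3 stayed called between cell types throughout. The counts over all genes moved more. For the cell types, 2903 genes were called, against 1602 on log2(RPKM + 1), 1755 with the filter on low values and 10508 without the fold threshold. For rhythm in alpha cells, 1355 genes were called, against 531 with time as a factor and 348 (without replicate 1 of alpha ZT8) to 2252 (without replicate 1 of alpha ZT4) on leaving out 1 library. For rhythm in beta cells, 2241 were called, against 1212 with time as a factor, 894 with the 12 libraries of that cell type alone and 1077 (without replicate 2 of beta ZT16) to 3100 (without replicate 2 of beta ZT0). The rhythm of Lpl was known beforehand and is not counted here. Of the other 5 genes, Plin2 was called rhythmic in alpha cells. Its call was lost without the 3 libraries rich in the other hormone and without any 1 of 5 libraries. Mgll was called in alpha cells on log2(RPKM + 1) and Plin3 with limma voom. In beta cells 0 of the 5 were called, and Pnpla2 was called without replicate 1 of beta ZT20. Of all genes, 9.66% were called in alpha cells and 16% in beta cells. For the difference of rhythm, 10 genes were called, against 44 on log2(RPKM + 1), 2 with time as a factor, 5 without those 3 libraries and 4 to 14 on leaving out 1 library. The cause of these shifts was not tested. The edgeR tests with TMM and with DESeq2 size factors were planned and not run. Voom and the fit without the 3 libraries were added after seeing the data. With time as a factor, the rhythm calls of Prkacb, Ddhd1, Hilpda, Aup1, Dgat2, Lpin2, Lpin1 and Ehhadh in alpha cells and of Sirt1, Hsd17b13 and Lpin2 in beta cells did not pass. With the 12 libraries of that cell type alone, Hilpda, Lpin1 and Ehhadh in alpha cells and Sirt1 and Lpin2 in beta cells did not pass. On log2(RPKM + 1), Dgat2 in alpha cells and Lpin2 in beta cells did not pass. Read depth limits Mgll, with 1 to 26 reads a library.

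The labels number the replicates 1 and 2 in every group. Deviations of alpha and beta libraries of the same number correlated at 0.704, 0.52, 0.448, 0.153, 0.151 and 0.0246 from ZT0 to ZT20. These values were positive at all 6 times but near 0 at ZT20, and the labels do not state pairs. The main tests took the libraries as unpaired, and the values do not settle whether they are pairs. With the number as a replicate block, 3 of the 6 genes were called between cell types, 2 in alpha rhythm and 1 in beta rhythm. Both rhythm counts include Lpl, whose rhythm was known beforehand. Over all genes the counts were 2903, 1235 and 2046, with 7 for the difference of rhythm. Either block ended the alpha rhythm call of Hilpda (limma adjusted p = 0.055, and 0.061 by pair). With the replicate block by pair (correlation 0.397 within pairs), 359 of all genes passed the test of the difference of rhythm. Of the 6 genes 1, Lpl, passed it (limma adjusted p = 0.04).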
